A study of Mus musculus with 6 samples.

Results

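Regulators of G protein signaling (RGS) are intracellular proteins that shut off signals from G protein coupled receptors, among them the chemokine receptors that steer leukocytes. A bound ligand makes the receptor load the G alpha subunit with GTP, and the RGS domain speeds the hydrolysis of that GTP, so that the G protein falls silent and the receptor must be engaged again. Leukocytes carry several RGS proteins side by side, which are known for setting how strongly and how long a cell answers a chemokine. The 7 genes described here are Rgs1, Rgs2, Rgs10, Rgs14, Rgs16, Rgs18 and Rgs19, taken by symbol as RGS genes of leukocytes, and all 7 were found among the 23398 genes listed.

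Dendritic cells grown from mouse bone marrow received either vehicle or Ca(OH)2 nanoparticles for 12 hours, and RNA was sequenced from 3 libraries of each group. Cells of both groups were grown in DMEM with serum, penicillin and streptomycin. The mouse strain, sex and age, the dose of particles and any growth factor are not given in the sources used here, and nothing says whether the libraries of a group came from separate animals or cultures, so p-values measure only the spread between these libraries, which may be technical. Values are FPKM, reads per kilobase of exon relative to the scale of the library.

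Whole reads could be recovered from these values, and over the 22530 genes for which they came out whole in all libraries they summed to 14588246 to 18622550 per library. Nanoparticle library 1 stood apart: its log2 values correlated with those of nanoparticle libraries 2 and 3 at 0.9423 and 0.9282 across 10682 genes, against 0.9895 between those 2 libraries and 0.9926 to 0.9938 among vehicle libraries (genes are not independent replicates). The results for the RGS genes are therefore given with and without it. Of 12 dendritic cell markers, 11 passed the filter on low values, and 4 of these were called lower with nanoparticles by limma (Zbtb46, Ciita, Cd209a and Clec10a). Of all genes tested 16.2% were called lower. These 4 stayed called lower without nanoparticle library 1, where the list had 2 higher (Cd74 and Batf3) and 5 lower. In that fit 34.3% of all genes tested were called higher and 30.5% lower. Itgax, which encodes CD11c, averaged 449 ± 7.16 FPKM over the vehicle and 340.4 ± 80.6 FPKM over the nanoparticle libraries (SD, 3 libraries each; limma adjusted p = 0.16, and 0.01 without nanoparticle library 1), and the receptor gene Flt3 was below 1 FPKM in all 6 libraries.

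Rgs1, Rgs2, Rgs16 and Rgs18 encode small members of the R4 subfamily, which consist of little more than the RGS domain. All lie on mouse chromosome 1 (GENCODE M21 annotation, build GRCm38). Rgs2 (ENSMUSG00000026360, minus strand, 143999338 to 144004161), Rgs1 (ENSMUSG00000026358, minus strand, 144242296 to 144249242) and Rgs18 (ENSMUSG00000026357, minus strand, 144752683 to 144775435) lie in this order, with gaps of 238 kb and 503 kb between their ends. The gaps are taken among the 7 genes only, and other genes that may lie in them are not described here. Rgs16 (ENSMUSG00000026475, plus strand, 153740349 to 153745468) lies 8965 kb further along. The other genes are on other chromosomes: Rgs10 (ENSMUSG00000030844) on chromosome 7 (minus strand, 128373621 to 128418758), Rgs14 (ENSMUSG00000052087) on chromosome 13 (plus strand, 55369732 to 55384687) and Rgs19 (ENSMUSG00000002458) on chromosome 2 (minus strand, 181688419 to 181693977). All 7 are annotated as protein coding.

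The sequence before the start of a gene holds sites for factors that set its transcription, and it is shown for 2 of the R4 genes of chromosome 1, Rgs2, which changed with the particles, and Rgs16, which did not pass the test. These are the 250 bases upstream of the RefSeq start on GRCm38.p6, 5′ to 3′ along the gene's strand, chr1:144004150-144004399 (minus strand) for Rgs2 and chr1:153740103-153740352 (plus strand) for Rgs16. Capitals mark every match, on either strand, to 8 motifs that were searched.
Rgs2: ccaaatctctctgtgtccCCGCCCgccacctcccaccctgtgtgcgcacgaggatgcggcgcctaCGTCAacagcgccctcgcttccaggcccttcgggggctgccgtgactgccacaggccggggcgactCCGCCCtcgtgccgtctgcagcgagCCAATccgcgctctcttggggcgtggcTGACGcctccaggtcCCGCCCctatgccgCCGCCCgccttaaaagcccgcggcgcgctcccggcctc
Rgs16: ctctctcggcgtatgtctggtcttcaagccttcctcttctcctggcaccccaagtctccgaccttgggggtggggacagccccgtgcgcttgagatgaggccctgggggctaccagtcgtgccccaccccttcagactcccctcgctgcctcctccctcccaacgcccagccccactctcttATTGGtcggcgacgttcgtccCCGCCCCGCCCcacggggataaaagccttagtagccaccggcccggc
RefSeq's promoter table matched 4 of the 7 genes, Rgs2, Rgs10, Rgs16 and Rgs19; Rgs1, Rgs14 and Rgs18 had no entry. The Rgs2 window held 2 matches to TGACG, the core of the cyclic AMP response element, from 185 to 181 and from 67 to 63 bases before the start, and 17.8% of all 32851 promoter windows held at least 1. It also held 4 matches to the GC box GGGCGG (32.7% of windows held it) and 1 to CCAAT (33.8%). The Rgs16 window held 2 GC boxes that overlap by a single base and 1 CCAAT box on the opposite strand, and no TGACG. Neither window held the AP1 motif TGANTCA (6.75% of windows), the interferon motifs TTCNNNGAA (7.02%) and GAAANNGAA (7.13%), the NF-kappaB consensus (7.25%) or TATAAA (12.4%). GC content was 72.4% in the Rgs2 and 66.4% in the Rgs16 window, where the median window had 52.4%. A match of letters is a description and says nothing about binding.

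In vehicle-treated cells all 7 genes were expressed above 1 FPKM. The levels, which are per length of merged exons, ran in the order Rgs2 (41.8 ± 1.59 FPKM), Rgs19 (32.0 ± 1.26), Rgs10 (23.1 ± 0.958), Rgs1 (22.0 ± 0.841), Rgs14 (12.1 ± 0.0921), Rgs18 (9.73 ± 0.420) and Rgs16 (2.73 ± 0.190; SD, n = 3 for each). Rgs10, at 22.4 to 24.2 FPKM, and Rgs1, at 21.0 to 22.5 FPKM, overlapped, whereas every other pair of neighbours in this order was separated in all 3 vehicle libraries. The order depends on the length a read count is divided by. The merged exons of Rgs1 span 6947 bases, 1.81 times its longest principal transcript of 3841 bases, because introns retained in some annotated transcripts are counted as exon. Per length of the principal transcript, the vehicle means of Rgs2, Rgs19, Rgs10 and Rgs1 came closer together, at 50.2, 47.2, 44.9 and 39.7 FPKM, and Rgs19 exceeded Rgs2 in vehicle library 2. The ratio of a gene's FPKM between libraries is not touched by this choice of length.

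**Figure D1:**
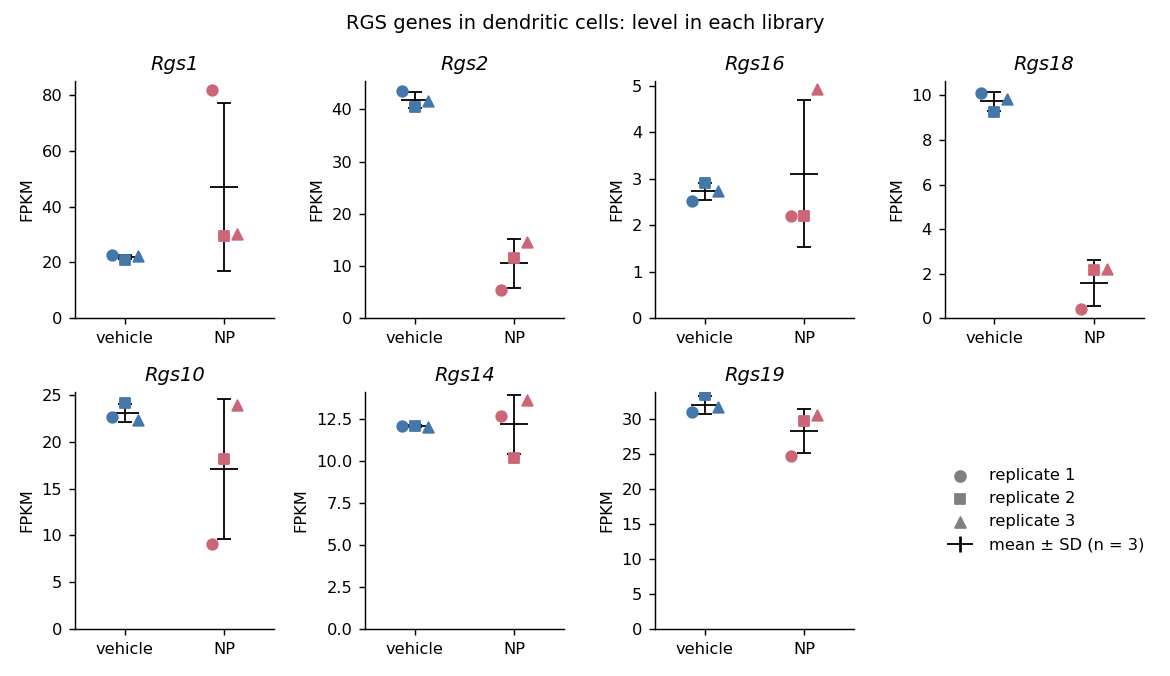
Level of each RGS gene in FPKM (y axis, from 0) in the 3 vehicle libraries (blue) and the 3 nanoparticle libraries (NP, red); symbols give the replicate, and bars the mean ± SD. Rgs2 and Rgs18 lie far below vehicle in all 3 nanoparticle libraries, and Rgs1 is highest in nanoparticle library 1.

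With nanoparticles 2 of the 7 genes fell, Rgs2 and Rgs18, and 0 rose, by limma's moderated test on log2(FPKM + 1) at a Benjamini-Hochberg adjusted p under 0.05 over all 10682 genes tested. The same test called 33.2% of all genes tested, 17% higher and 16.2% lower, so the share of RGS genes called was near that of the whole table. At an unadjusted p under 0.05 the count of RGS genes was also 0 higher and 2 lower. Limma-voom on the recovered reads gave 0 and 2. Its library sizes came from the scale of the deposited values, so it does not test that scale. The groups did not overlap for 4 of the 7 genes (Rgs1, Rgs2, Rgs18 and Rgs19), against 52.1% of all genes tested. All 7 passed the filter of at least 1 FPKM in at least 3 libraries, and each would have done so on its vehicle libraries alone. As RNA was taken from whole cultures, fewer cells that express a gene and less RNA of it per cell cannot be told apart.

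Rgs2 encodes a regulator that acts chiefly on Gq and also restrains cyclic AMP production. It was at 43.5, 40.4 and 41.6 FPKM in vehicle libraries 1 to 3 and at 5.34, 11.6 and 14.5 FPKM in nanoparticle libraries 1 to 3. The groups were far apart, and per length of merged exons Rgs2 went from the most abundant of the 7 genes in every vehicle library to a place behind Rgs1, Rgs10 and Rgs19 in every nanoparticle library. The mean fell 3.99-fold, from 41.8 ± 1.59 to 10.5 ± 4.69 FPKM (SD over 3 libraries each). On the log2 scale the change was -1.99 (SE 0.323, 95% interval -2.77 to -1.21, limma adjusted p = 0.0047). These values rest on 2902 to 3147 reads per vehicle library and 316 to 1015 per nanoparticle library. Without nanoparticle library 1 the decrease of Rgs2 was 3.20-fold (log2 change -1.61, SE 0.0951, limma adjusted p = 2.5e-05).

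Rgs18 encodes an R4 regulator of Gi and Gq that is best known from platelets and their precursors and is also made by myeloid cells. It was at 10.1, 9.26 and 9.83 FPKM in the vehicle libraries and at 0.392, 2.17 and 2.22 FPKM in the nanoparticle libraries. Every nanoparticle library was below every vehicle library, and library 1 was lowest with 13 reads, against 73 and 87 reads in libraries 2 and 3 and 373 to 417 in the vehicle libraries. The mean fell 6.10-fold, from 9.73 ± 0.420 to 1.60 ± 1.04 FPKM (SD, n = 3 each). The log2 change was -2.15 (SE 0.329, 95% interval -2.94 to -1.35, limma adjusted p = 0.0039) on the log2(FPKM + 1) scale, which understates changes of low genes, and it was -2.84 with 0.1 added in place of 1 and -2.91 by limma-voom. Without nanoparticle library 1 Rgs18 was 4.43-fold lower (log2 change -1.75, SE 0.0695, limma adjusted p = 4.8e-06).

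Platelet and megakaryocyte markers were measured beside Rgs18. Of the 8 markers on that list, Gp1bb and Gp9 were not analysed here, Itga2b, Gp1ba and Gp6 were below 1 FPKM in all 6 libraries, and the sum of the list was nearly all Pf4 and Ppbp, chemokine genes that myeloid cells can also express. The summed level was 222 to 249 FPKM in the vehicle libraries and 144, 611 and 699 FPKM in nanoparticle libraries 1 to 3, and 0 of the 3 markers tested were called by limma (1 at an unadjusted p under 0.05). Pf4 averaged 202 ± 11.8 FPKM in the vehicle and 443 ± 266 FPKM in the nanoparticle libraries, and Ppbp 31.0 ± 3.78 and 39.6 ± 32.5 FPKM (SD, 3 libraries each). Treml1 averaged 3.25 ± 0.214 FPKM in the vehicle and 1.42 ± 0.876 FPKM in the nanoparticle libraries (SD over 3 libraries each; limma adjusted p = 0.058). Without nanoparticle library 1, where 64.8% of all genes tested were called, all 3 were called. Pf4 and Ppbp were higher (log2 changes 1.55 and 0.89) and Treml1 lower (-0.55), so that Treml1 went the way of Rgs18 and the other tested markers did not. Gp6, below the filter and named after its values were seen, had 0 reads in each vehicle library and 55, 49 and 62 in the nanoparticle libraries. Their part in the decrease of Rgs18 was not tested.

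Rgs1 encodes an R4 regulator of Gi and Gq, known for dampening chemokine receptor responses of lymphocytes and other leukocytes. It was at 22.5, 21.0 and 22.4 FPKM in the vehicle libraries and at 81.8, 29.4 and 30.1 FPKM in the nanoparticle libraries. On the deposited scale all nanoparticle libraries lay above all vehicle libraries, but library 1 held 2.75 times the mean of libraries 2 and 3. The means were 22.0 ± 0.841 and 47.1 ± 30.1 FPKM (SD over 3 libraries each), a 2.14-fold difference. The log2 change of 0.90 (SE 0.390, 95% interval -0.04 to 1.84) did not pass the test (limma adjusted p = 0.13). The recovered reads were 2891 to 3252 in vehicle and 3382 to 9283 in nanoparticle libraries. Without nanoparticle library 1 the difference was smaller, 1.35-fold, but passed (log2 change 0.42, SE 0.0574, 95% interval 0.28 to 0.56, limma adjusted p = 8.8e-04). That result is on the deposited scale, and the comparison was not made with libraries brought to the same sum of FPKM. The FPKM of all genes summed to 321728 to 328384 in vehicle and to 463889 and 491404 in nanoparticle libraries 2 and 3. The sums thus rose more than Rgs1 did.

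Rgs16 encodes an R4 regulator of Gi and Gq that is induced in many activated lymphocytes and myeloid cells. It was the lowest of the 7 genes in vehicle, at 2.53, 2.91 and 2.74 FPKM, and was at 2.20, 2.20 and 4.93 FPKM in the nanoparticle libraries. Nanoparticle libraries 1 and 2 lay below, and library 3 above, all vehicle libraries. The log2 change was 0.08 (SE 0.252, 95% interval -0.53 to 0.69, limma adjusted p = 0.84), and its sign rested on nanoparticle library 3, without which it was -0.22; without nanoparticle library 1 it was 0.22 (limma adjusted p = 0.44). Only 84 to 222 reads per library stand behind these values. In addition, 236 exon bases of Rgs16 are shared with Gm28513 on the opposite strand; whether the counting used strand is not given in the sources used here, so reads of the 2 genes may be mixed.

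Rgs10 and Rgs14 belong to the R12 subfamily. Rgs10 encodes a small regulator of Gi proteins that is abundant in macrophages and microglia, where it is known to restrain inflammatory activation. It was at 22.7, 24.2 and 22.4 FPKM in vehicle and at 9.13, 18.2 and 24.0 FPKM with nanoparticles. Library 1 was far below vehicle, library 2 below it and library 3 within its range. The log2 change was -0.51 (SE 0.320, 95% interval -1.28 to 0.27, limma adjusted p = 0.27), and without nanoparticle library 1 it was -0.14 (95% interval -0.41 to 0.14, limma adjusted p = 0.32).

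Rgs14 encodes a larger scaffold that joins an RGS domain to Ras-binding domains and a motif that holds inactive Gi. It was at 12.1, 12.1 and 12.0 FPKM in vehicle and at 12.7, 10.2 and 13.6 FPKM with nanoparticles. The vehicle libraries differed by less than the nanoparticle libraries, which lay on both sides of them. The means were 12.1 ± 0.0921 and 12.1 ± 1.76 FPKM (SD, n = 3 each), and the 95% interval of the log2 change ran from -0.30 to 0.30 (limma adjusted p = 1.0). Leaving out nanoparticle library 1 gave -0.03 (limma adjusted p = 0.81).

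Rgs19, also called GAIP, encodes a regulator of the RZ subfamily that acts on Gi proteins and sits on membranes of the secretory pathway. It was at 30.9, 33.4 and 31.6 FPKM in vehicle and at 24.7, 29.6 and 30.5 FPKM with nanoparticles. The groups were separated only narrowly, between 30.5 and 30.9 FPKM. The means were 32.0 ± 1.26 and 28.3 ± 3.09 FPKM (SD, n = 3 each), and the log2 change of -0.18 did not pass the test (SE 0.116, 95% interval -0.46 to 0.10, limma adjusted p = 0.29), nor did that of -0.09 without nanoparticle library 1 (limma adjusted p = 0.22).

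**Figure D2:**
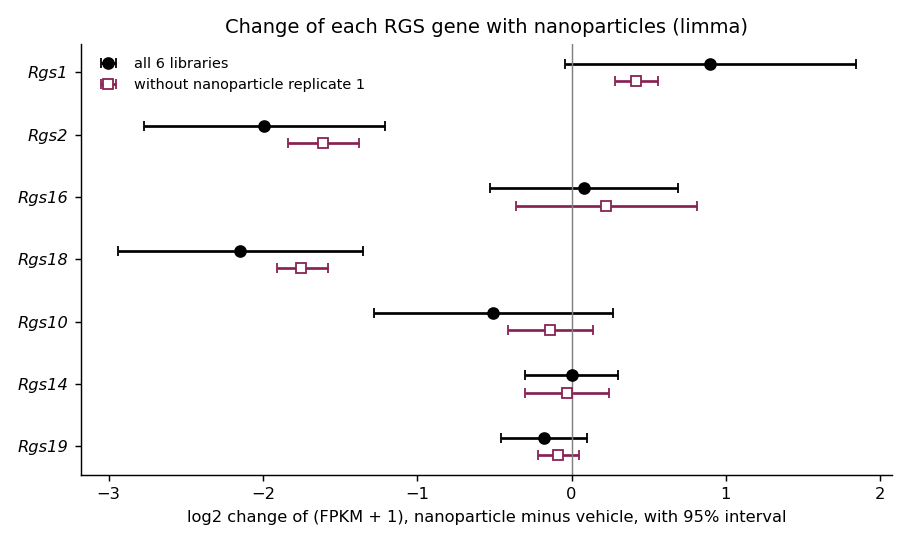
Log2 change of (FPKM + 1), nanoparticle minus vehicle (x axis), for each RGS gene with its 95% interval, from all 6 libraries (black circles) and without nanoparticle library 1 (open squares). The intervals of Rgs2 and Rgs18 lie below 0 in both, and that of Rgs1 lies above 0 only without library 1.

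The direction of the small changes depends on how libraries are set against each other. The deposited scale leaves the median log2 change of all genes at 0.00, and with libraries brought to the same sum of FPKM that median was -0.38. On that scale 5 RGS genes were called lower (Rgs2, Rgs10, Rgs14, Rgs18 and Rgs19) and 0 higher, among 881 higher and 4306 lower genes in the whole table in place of 1817 and 1733. Relative to the median of -0.38, the changes were 0.83 for Rgs1, -2.06 for Rgs2, -0.57 for Rgs10, -0.05 for Rgs14, 0.11 for Rgs16, -2.13 for Rgs18 and -0.25 for Rgs19. Thus Rgs2 and Rgs18 were lower and called on either scale, while Rgs16 changed sign to -0.28 with equal sums. Over all 6 libraries Rgs1 was called on neither scale, and with equal sums its log2 change was 0.44 (limma adjusted p = 0.43). The fit without nanoparticle library 1, in which Rgs1 passed, was made on the deposited scale only.

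The nanoparticle libraries differed among themselves in most of these genes. Nanoparticle library 1 differed over 2-fold from the average of libraries 2 and 3 for 4 of the 7 genes, against 19.8% of all genes tested. It was 2.75-fold higher for Rgs1, and 2.45-fold lower for Rgs2, 2.31-fold lower for Rgs10 and 5.61-fold lower for Rgs18. For Rgs1, Rgs2 and Rgs18 library 1 thus lay on the same side of vehicle as libraries 2 and 3, and farther from it. The coefficient of variation over the vehicle libraries ran from 0.763% (Rgs14) to 6.97% (Rgs16). Over the nanoparticle libraries it ran from 10.9% (Rgs19) to 65.3% (Rgs18). The sum of the dendritic cell markers differed in library 1 as well: it was 7329 to 7794 FPKM in vehicle and 3785, 8327 and 9141 FPKM in nanoparticle libraries 1 to 3. That sum was carried mostly by Cd74 (2270, 4790 and 5273 FPKM in nanoparticle libraries 1 to 3) and the MHC class II genes H2-Ab1, H2-Aa and H2-Eb1. Zbtb46, Ciita, Cd209a and Clec10a, which add little to it, were below vehicle in every nanoparticle library. The part of these markers in the RGS values was not tested.

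In the RGS transcript pool the shares of Rgs2 and Rgs18 were lower in every nanoparticle library than in every vehicle library. Those of Rgs1 and, per length of merged exons, Rgs14 were higher. Rgs18 made up 6.47% to 6.99% in vehicle and 0.288%, 2.1% and 1.85% in nanoparticle libraries 1 to 3. Rgs2 made up 28.2% to 30.1% of the summed FPKM of the 7 genes in the vehicle libraries and 3.91%, 11.2% and 12.1% in nanoparticle libraries 1 to 3. Rgs1 made up 14.7% to 15.7% in vehicle and 60.0%, 28.5% and 25.1% with nanoparticles. Rgs19 made up 21.4% to 23.3% in vehicle and 18.2%, 28.6% and 25.5% with nanoparticles, and Rgs10 15.7% to 16.9% in vehicle and 6.70% and 17.6% in nanoparticle libraries 1 and 2 and more still in library 3. These 2 shares lay above vehicle in libraries 2 and 3 only. Rgs14 made up 8.38% to 8.46% in vehicle and 9.29%, 9.85% and 11.3% with nanoparticles. Per length of the principal transcript its share in nanoparticle library 1, 9.73%, was below the 10.0% to 10.1% of vehicle. Shares of 1 sum are tied to each other, so a lower share of a gene raises those of the rest. The sum itself averaged 143 ± 0.887 FPKM over the vehicle libraries and 119.8 ± 16.5 FPKM over the nanoparticle libraries (SD, 3 libraries each). It did not pass an exact permutation test (p = 0.1, the smallest value that 3 against 3 libraries allow).

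The ratio of Rgs1 to Rgs2 within a library does not depend on the scaling between libraries. It was 0.517, 0.520 and 0.540 in vehicle and 15.3, 2.53 and 2.07 in the nanoparticle libraries, on FPKM. In recovered reads the vehicle libraries held nearly equal numbers of both (0.990, 0.996 and 1.03 Rgs1 reads per Rgs2 read), and the nanoparticle libraries held 29.4, 4.85 and 3.97. The groups did not overlap in this ratio. An exact permutation test on its log2 gave p = 0.1, the smallest value that 3 against 3 libraries allow, so that test could not pass. The pair was also chosen after its values were seen, and the ratio is given as a description. In nanoparticle libraries 2 and 3 Rgs1, at 29.4 and 30.1 FPKM, and Rgs19, at 29.6 and 30.5 FPKM, were the leading genes and lay close together per length of merged exons, and in library 1 Rgs1 led alone. Per length of the principal transcript Rgs1 led in both, with 31.5% and 27.9% of the pool against 25.8% and 23.1% for Rgs19, and in library 3 Rgs10 at 23.9% lay above Rgs19.

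**Figure D3:**
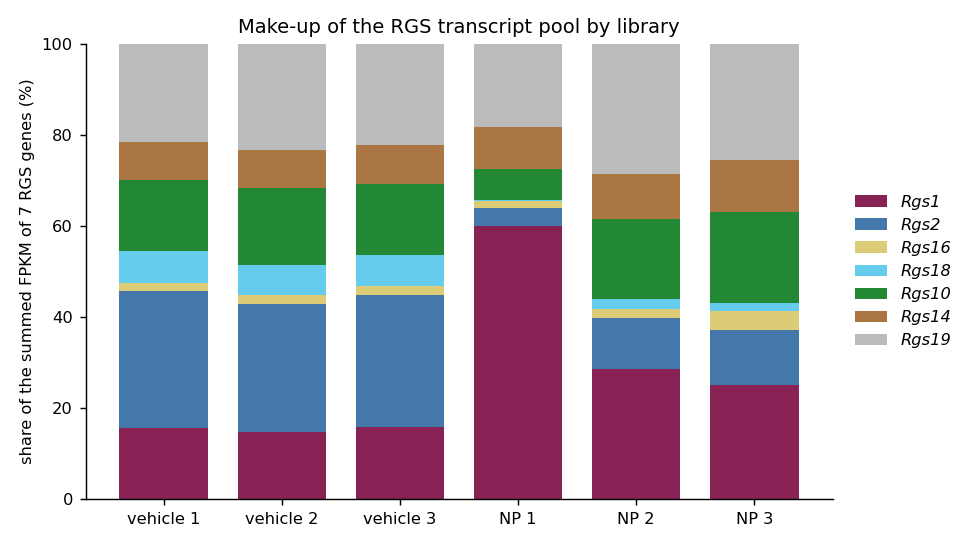
Share (%) of each RGS gene in the summed FPKM of the 7 genes, one bar per library (vehicle 1 to 3, nanoparticle NP 1 to 3). Rgs2 shrinks from 28.2% to 30.1% in vehicle to 3.91% to 12.1% with nanoparticles, and Rgs1 grows from at most 15.7% to at least 25.1%.

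Among the 7 genes Rgs2 and Rgs18 had the most similar profiles on the log2(FPKM + 1) scale. After each profile of log2(FPKM + 1) over the 6 libraries was centred on its mean, the Euclidean distance between them was 0.275, the smallest of all pairs, and Rgs1 and Rgs18 were farthest apart at 4.30. Among 6659 other genes with a mean of at least 5 FPKM in a group, Mbnl1, a splicing regulator, was closest to both Rgs18 (0.179) and Rgs2 (0.263), and its mean went from 38.2 ± 0.915 to 9.44 ± 4.48 FPKM (SD over 3 libraries each). Next came Gcnt1, a glycosyltransferase gene, for Rgs18 (0.217) and Hmgb2, a chromatin protein gene, for Rgs2 (0.272). Closest to Rgs1 were Slc16a3 (0.205), which encodes a lactate exporter and averaged 13.2 ± 0.446 FPKM in vehicle and 30.9 ± 18.4 FPKM in nanoparticle libraries (SD over 3 libraries each), and Plekhn1 (0.232). The nearest genes were Gm6472 and C1qbp for Rgs10, Pcsk7 and Chmp7 for Rgs14, Mrps11 and Psmg2 for Rgs16, and Rpusd4 and Ssr1 for Rgs19, at distances of 0.0642 to 0.226. These distances describe the same 6 libraries in 2 groups, nanoparticle library 1 among them, and carry no test. They also depend on the 1 added to each FPKM, which compresses low values such as Rgs18 in nanoparticle library 1 (0.392 FPKM, 13 reads). With 0.1 added the log2 changes of Rgs2 and Rgs18 lay farther apart, at -2.1 and -2.84. The order of the pairs was not examined on that scale.

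Other genes of the RGS family added little to the pool. Of 16 on a list of the rest of the family, including binding proteins, 10 were below the filter and 1, Rgs12, was tested; the other 5 were not analysed here. Rgs12, which encodes a large member of the subfamily of Rgs10 and Rgs14, was at 2.92, 3.07 and 2.82 FPKM in vehicle and at 1.09, 1.91 and 1.79 FPKM with nanoparticles, all below vehicle (log2 change -0.61, SE 0.147, limma adjusted p = 0.021). Rgs3 (0.963 ± 0.132 and 0.559 ± 0.236 FPKM) and Rgs11 (1.04 ± 0.215 and 0.478 ± 0.126 FPKM; SD, n = 3 each), named here after their values were seen, lay near 1 FPKM in vehicle and under it with nanoparticles.

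The partners of these regulators were described by counts over lists. The lists name 114 genes, 103 of them were in the table and 60 passed the filter. Of these 60, 14 were higher and 16 lower, where 33.2% of all genes tested were called (17% higher and 16.2% lower), and their log2 changes had a median of -0.14, against 0.00 over all genes tested. The G alpha subunits were listed as a class, whether or not the 7 regulators act on each of them. Among these subunits 0 of 8 were higher by limma (1 at an unadjusted p under 0.05, 1 by limma-voom) and 1 was lower, Gna12, which couples receptors to the actin cytoskeleton (18.4 ± 0.269 to 11.3 ± 1.87 FPKM, SD, n = 3 each). The main Gi gene Gnai2, named here as a target of most of these regulators and chosen after its values were seen, was at 195, 204 and 206 FPKM in vehicle and 139.8, 189.6 and 191 FPKM with nanoparticles, which is a change of -0.23 on the log2 scale (limma adjusted p = 0.31). Counts of G alpha genes moved with the scale and with 1 library: with equal sums of FPKM 7 of the 8 were lower, Gnai2 among them (log2 change -0.70, limma adjusted p = 0.0029), and without nanoparticle library 1 the count was 2 higher and 5 lower. Of 8 G beta and gamma genes 4 rose, Gng12 (27.4 ± 0.965 to 53.1 ± 5.58 FPKM), Gnb4, Gng5 and Gng11, and 1 fell (Gng2, named after its values were seen); with equal sums of FPKM Gng12 alone of these 4 was still called, with a log2 change of 0.47 in place of 0.93.

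The receptor kinases and arrestins are the second brake on receptors, acting on the receptor where RGS proteins act on the G protein. Of 6 tested, 0 were higher by limma, at an unadjusted p under 0.05 and by limma-voom, and 3 fell; without nanoparticle library 1 it was 2 higher and 3 lower. Grk5 was at 12.0, 11.8 and 11.3 FPKM in vehicle and at 3.23, 4.93 and 4.74 FPKM with nanoparticles (log2 change -1.27, SE 0.149, limma adjusted p = 0.0014). Grk6 fell from 9.77 ± 0.318 to 4.54 ± 0.761 FPKM and the beta-arrestin gene Arrb1 from 19.0 ± 0.354 to 8.62 ± 2.38 FPKM (SD, n = 3 each). All 3 were below vehicle in every nanoparticle library, as Rgs2 and Rgs18 were. Of 8 other regulators of G proteins 0 passed by limma and 0 by limma-voom, with 1 higher and 1 lower at an unadjusted p under 0.05, and 3 higher and 3 lower by limma without nanoparticle library 1.

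Of 11 effectors downstream of chemokine receptors 2 rose and 5 fell, with a median log2 change of -0.50. The adenylyl cyclase genes Adcy7 (40.3 ± 1.52 to 14.7 ± 1.77 FPKM) and Adcy6 (0.217 ± 0.0802 to 2.93 ± 0.261 FPKM) went opposite ways, the phospholipase gene Plcb2 fell from 29.6 ± 1.61 to 9.09 ± 1.43 FPKM, and Dock2, which drives Rac in migrating leukocytes, fell from 27.0 ± 1.00 to 12.2 ± 0.739 FPKM (SD, n = 3 each). Of 6 chemokine receptors tested 2 rose (Ccr7 and Ccrl2, with log2 changes of 5.11 and 4.96) and 3 fell, among them Ccr2 with a log2 change of -2.65. Of 12 other Gi coupled receptors of leukocytes 6 rose and 2 fell, against 5 and 6 with equal sums of FPKM, and 6 and 5 both without nanoparticle library 1 and at an unadjusted p under 0.05. The rises were led by the formyl peptide receptors Fpr2 (7.33 ± 1.96 to 149.7 ± 21.7 FPKM) and Fpr1 (5.17 ± 1.95 to 72.2 ± 1.35 FPKM; SD, n = 3 each). Each partner gene named here as higher or lower was called in the same direction without nanoparticle library 1. With equal sums of FPKM the count over all partner lists was 9 higher and 30 lower. Without nanoparticle library 1, on the deposited scale, the pathway count was 24 higher and 27 lower, in a table where 64.8% of genes were then called (34.3% higher and 30.5% lower). The RGS count was then 1 higher (Rgs1) and 2 lower (Rgs2 and Rgs18).

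**Figure D4:**
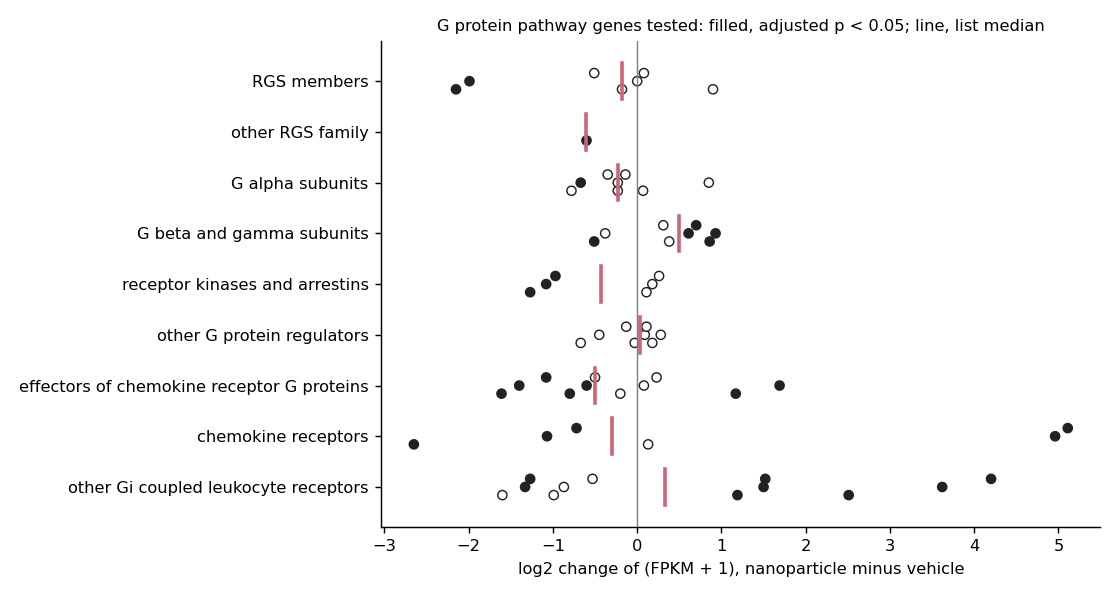
Log2 change of (FPKM + 1), nanoparticle minus vehicle (x axis), of each tested gene in the 7-gene RGS set and in 8 lists of partners (rows); filled circles passed an adjusted p of 0.05 and red lines are list medians. The RGS set spans -2.15 to 0.90, and Ccr7 at 5.11 is the highest point.

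Markers of other blood cells were summed in each library beside the RGS genes. The summed level of 10 T and NK cell markers was at most 0.953 FPKM in vehicle and 1.98 FPKM with nanoparticles, and 9 of them were below 1 FPKM in all libraries. The 7 B cell markers summed to 5.55 to 6.51 and 3.43 to 6.85 FPKM, with Ms4a1, Cd79a, Cd79b and Pax5 below 1 FPKM in all libraries and Ighm called lower (1.79 ± 0.193 and 0.236 ± 0.244 FPKM, SD, n = 3 each). That sum was mostly Cd22, which was not called (3.91 ± 0.224 and 4.35 ± 1.54 FPKM, SD, n = 3 each, limma adjusted p = 0.77). The 9 mast cell and basophil markers, of which 7 were listed, summed to 1.35 to 2.59 and 1.17 to 2.64 FPKM. The 12 neutrophil markers summed to 265 to 299 FPKM in vehicle and 179.8 to 254 FPKM with nanoparticles, with Mpo, Elane, Ly6g and 4 others below 1 FPKM in all libraries. That sum was carried by Mmp8, which fell (245 ± 14.5 and 130 ± 2.28 FPKM, SD, n = 3 each), while S100a8 rose (34.9 ± 1.32 and 83.1 ± 30.0 FPKM, SD, n = 3 each) and S100a9, Ngp and Camp were above every vehicle library in nanoparticle libraries 2 and 3. The 11 macrophage markers summed to 808 to 929 and 602 to 668 FPKM, with 2 called higher and 4 lower, and 0 and 5 with equal sums of FPKM. On the deposited scale 17% of all genes tested were called higher and 16.2% lower. The part of these sums in the RGS values was not tested.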

How the data were processed

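RNA of 3 vehicle and 3 nanoparticle libraries was sequenced, each from 1 µg of total RNA; groups and replicate numbers come from the sample titles. The submitters' processing notes name CASAVA, STAR 2.5, HTSeq, edgeR 3.16.5 and DESeq2, and the builds mm10 and hg19, with no role for any; strand is not given in the sources used here. The authors deposited 2 tables with 140388 identical values. The values deposited by the authors were read as FPKM. No header or label names the unit, which is inferred: with merged exon lengths of GENCODE M21 (23366 of 23398 genes matched), 95.8% to 96.1% of values above 0 became whole reads within 0.01. How the deposited values were scaled between libraries is not given in the sources used here.

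The 10682 genes that reached 1 FPKM in 3 or more libraries were tested with limma 3.58.1 in R 4.3.3 on log2(FPKM + 1), with group as the single term, eBayes with a trend (prior df 2.33) and Benjamini-Hochberg adjustment over all of them, at a threshold of 0.05; the script was tested on simulated data. The 7 genes and the lists of partners and markers were chosen with earlier results of these data known. Named genes were the 7, up to 4 called genes per list with the smallest adjusted p, and the 2 nearest profiles per gene. Exceptions are marked where they stand, and a gene that the rule would name is not reported here. Alternatives were another pseudocount (0.1), no filter or 5 FPKM, equal sums of FPKM, no trend, limma-voom on recovered reads, a replicate block and leaving out each library. Limma-voom took its library sizes from the deposited scale and not from the read totals, so of these only equal sums of FPKM changed the scale. Read numbers carry counting error only, since reads are not independent molecules. The summed FPKM of the 7 genes and the log2 ratio of Rgs1 to Rgs2 were compared between groups by an exact permutation test of the means. No set test was made.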

Additional observations from a re-analysis of the deposited data

How the results depend on the processing

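Rgs2 and Rgs18 stayed lower and past the threshold in each of the 13 alternatives, with log2 changes without 1 library of -2.26 to -1.61 and -2.35 to -1.75. The number of RGS genes called was 2 to 3 when each library was left out in turn and 5 with equal sums of FPKM, where Rgs10 (-0.96), Rgs14 (-0.44) and Rgs19 (-0.63) passed and Rgs16 turned to -0.28; equal sums moved all genes by a median of -0.38. Without 1 library in turn Rgs1 ran from 0.42 to 1.14 and passed only without nanoparticle library 1, Rgs10 ran from -0.79 to -0.14, Rgs14 from -0.08 to 0.11, Rgs16 from -0.22 to 0.22 and Rgs19 from -0.23 to -0.09. Rgs14, at -0.00053, turned to 0.00041 by limma-voom. For Rgs14 and Rgs16 the intervals include 0 and the sign carries little. Genes called in the whole table ran from 2141 to 6923, and partner genes from 21 to 51, when each library was left out, in both cases highest without nanoparticle library 1, where all 3550 genes of the full comparison were called too; the cause was not tested. Per length of the principal transcript, an alternative chosen after seeing the data, vehicle levels were 39.7 FPKM for Rgs1, 50.2 for Rgs2, 44.9 for Rgs10, 21.7 for Rgs14 and 47.2 for Rgs19.

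Whether the replicate numbers pair the samples could not be settled from the values. Deviations from the group means of same-numbered libraries correlated at 0.0654, 0.113 and -0.0577 across genes. Vehicle libraries 1 and 2 correlated best with their own number, and vehicle library 3 did not. Deviations from a mean of 3 libraries are tied to each other, so these correlations cannot decide it. With a replicate block 2785 genes were called, 2 of the RGS genes (Rgs2, adjusted p = 0.010, and Rgs18, adjusted p = 0.0085, by limma) and 31 partner genes.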
